A study of Mus musculus with 6 samples.

Results

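The 10 genes described here encode receptors of non-peptidergic nociceptors and of itch-sensing neurons: Mrgprd, Mrgpra3, Mrgprb4, Mrgprb5, Mrgprx1, Mrgpre, Lpar3, Lpar5, P2rx3 and P2ry1. They were chosen by symbol from the 24062 genes counted in each library, and all 10 were present and passed the filter on low counts that left 15652 genes. Bulk RNA-seq libraries came from 6 mice of a mixed background labelled C57BL/6-I129, and no age is given in the labels. In 3 libraries the mice were Nf1fl/fl;DhhCre, and the labelled tissue was the dorsal root ganglion (DRG). In the other 3, labelled double knockout (DKO), Runx1 and Runx3 were floxed as well, and the labelled tissue was neurofibroma. The labels leave Nf1fl/fl out of the genotype of the second group, whereas the protocol gives Nf1fl/fl and DhhCre for both groups and DRG/tumors as the tissue of both. The Dhh promoter drives Cre in the Schwann cell (SC) lineage, and recombination in neurons is not part of the design and was not measured here.

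Primary sensory neurons of the DRG that detect noxious and itch-provoking stimuli fall into peptidergic cells, which release neuropeptides, and non-peptidergic cells, many of which carry Mas-related G protein-coupled receptors (Mrgpr) and the ATP-gated channel P2X3. MRGPRD responds to beta-alanine and marks a large class of non-peptidergic fibres in the skin, and MRGPRA3 is a chloroquine receptor on neurons that mediate itch. In sensory neurons themselves, RUNX1 is known as a regulator of the non-peptidergic fate and of Mrgpr genes. Here the receptors are described in a design that deletes the floxed genes in another cell type.

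All 6 of the Mas-related members lie on chromosome 7 of GRCm38 (mm10). Mrgpra3, Mrgprx1, Mrgprb5 and Mrgprb4 lie within 610.3 kb of each other on the minus strand, and Mrgprd and Mrgpre lie apart from them. RefSeq promoter windows (GRCm38.p6) matched 8 of the 10 members, with 2 windows for Lpar5 and none for Mrgpra3 and P2rx3. Because Runx1 and Runx3 are floxed in the second group, the 250 bases before each start were searched for the RUNX core strings TGTGGT and TGCGGT on both strands. Of the 9 member windows, 2 held a match, both of Lpar5, with TGTGGT once in 1 window and in 2 places in the other. Of all 32851 windows of this length, 18.6% hold at least 1 of these strings. No difference between these shares was tested. A match is a description of letters, and the absence of one says only that these letters are not in this window. The sequence before the start of Mrgprd, the member with the best supported change, is shown with that of Lpar5, the member with a match, which is in capitals. Both read 5′ to 3′ on the plus strand, from chr7:145314585-145314834 and chr6:125067670-125067919.
Mrgprd: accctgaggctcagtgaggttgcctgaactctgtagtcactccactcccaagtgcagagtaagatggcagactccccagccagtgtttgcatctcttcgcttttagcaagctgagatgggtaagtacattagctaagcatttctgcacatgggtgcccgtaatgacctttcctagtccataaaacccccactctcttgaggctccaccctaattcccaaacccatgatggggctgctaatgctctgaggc
Lpar5: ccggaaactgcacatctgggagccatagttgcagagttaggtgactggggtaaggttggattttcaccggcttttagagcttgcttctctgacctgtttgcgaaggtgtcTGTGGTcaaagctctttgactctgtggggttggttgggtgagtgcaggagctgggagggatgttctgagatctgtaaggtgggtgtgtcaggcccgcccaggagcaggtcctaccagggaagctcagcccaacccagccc

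Mrgprb4 and Mrgprb5 are similar in sequence, and their upstream sequence is shown to describe this. Only bases upstream of both the RefSeq and the GENCODE start are given, 5′ to 3′ on the minus strand, from chr7:48199289-48199428 and chr7:48169020-48169235. The 2 stretches were 80.4% identical over 138 aligned bases, and the capitals mark their longest shared run, of 21 bases.
Mrgprb4: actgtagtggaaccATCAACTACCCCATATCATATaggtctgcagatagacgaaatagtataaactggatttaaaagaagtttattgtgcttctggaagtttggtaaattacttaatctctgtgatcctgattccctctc
Mrgprb5: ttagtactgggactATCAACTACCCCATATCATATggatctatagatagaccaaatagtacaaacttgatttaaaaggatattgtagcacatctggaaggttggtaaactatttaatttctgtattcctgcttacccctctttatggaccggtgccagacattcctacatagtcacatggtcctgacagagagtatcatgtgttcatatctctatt
Their longest transcripts were 84.7% identical over 1033 aligned bases. Counting can split or drop reads between genes that share sequence. The share of 50-base strings of each member's transcripts found in a transcript of another gene was therefore computed. That share was 0 for Mrgprd, Lpar3, Lpar5 and P2rx3. It was 0.81% for Mrgprb5, 1.45% for Mrgprb4, 1.35% for Mrgpre, 5.84% for Mrgprx1 and 7.14% for Mrgpra3. For P2ry1 it was 22.0%, shared mostly with the antisense gene Gm37035, and without strand information the reads of the pair cannot be told apart. The P2rx3 gene overlaps Ssrp1 on the other strand, with no shared 50-base string in their transcripts.

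Counts summed to between 12439296 and 16682194 per library, so 3 counts equal 0.179 to 0.247 CPM (counts scaled to a common library total), taken here as the floor, which covers counting error only. Values in CPM were scaled by TMM factors, which correct each library for composition. Runx1, a gene the design deletes in SCs, was highest of all 6 libraries in DKO-labelled replicate 3, at 185 CPM, and the other libraries of that label had 84.0 and 78.9 CPM. Runx3, the other gene floxed in that group, ran the way of the labels, with 13.6, 10.3 and 12.2 CPM in DKO-labelled replicates 1 to 3, all below the 19.9, 15.1 and 29.9 CPM of the Nf1fl/fl;DhhCre group. Because Runx1 does not follow the label in 1 library, the group is named by its label, and fold changes, list counts and differences from the neuron markers are also given without that replicate. The 12 general neuron markers, which include Elavl3, Pou4f1 and Snap25, were present in all libraries, those labelled as tumor included. Their geometric mean was 18.8, 41.0 and 17.1 CPM in Nf1fl/fl;DhhCre replicates 1 to 3 and 82.5, 102 and 178 CPM in the DKO-labelled libraries. Summed skeletal muscle genes were 2159 and 11190 CPM in replicate 2 of the 2 groups and 5.52 to 63.0 CPM in the other 4 libraries. In bulk tissue, fewer cells of a type and less RNA per cell cannot be told apart.

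Mrgprd, the beta-alanine receptor (ENSMUSG00000051207, chr7:145314835-145324086, plus strand), was at 5.83, 10.5 and 6.35 CPM in the Nf1fl/fl;DhhCre libraries, or 84, 176 and 99 counts. It was at 62.9, 65.4 and 95.3 CPM in the DKO-labelled libraries, or 789, 795 and 1444 counts. The lowest library of the second group thus lay far above the highest of the first. Mrgprd changed by 3.31 on the log2 scale (SE 0.30, 95% interval 2.60 to 4.03, adjusted p = 0.00598 by limma-voom and the Benjamini-Hochberg method, BH), which is 9.94-fold. It passed as a differentially expressed gene (DEG), defined by an adjusted p below 0.05 and a change of more than 2-fold, with all libraries and whichever of the 6 was left out. Across those 6 fits its change lay between 3.12, without DKO-labelled replicate 3, and 3.63.

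Mrgpra3, the chloroquine receptor (chr7:47588950-47601372, minus strand), had 0.971, 8.76 and 0.706 CPM in the Nf1fl/fl;DhhCre libraries and 6.77, 6.74 and 15.6 CPM in the DKO-labelled libraries. Replicate 2 of Nf1fl/fl;DhhCre stood above 2 of the 3 libraries of the other group, so the groups overlapped. Its log2 change of 2.23 (SE 0.86, limma-voom BH-adjusted p = 0.110) did not pass. With that replicate left out the value was 3.48 and Mrgpra3 was a DEG, whereas it was 1.60 without Nf1fl/fl;DhhCre replicate 3 and 1.79 without DKO-labelled replicate 3.

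Mrgprb4 marks a population of fibres of hairy skin that respond to stroking, and lies at chr7:48198070-48199288 on the minus strand. It had 2.50, 13.9 and 1.60 CPM against 12.7, 16.0 and 32.9 CPM. Here too replicate 2 of Nf1fl/fl;DhhCre was within the range of the other group, and the remaining 2 libraries were well below it. Mrgprb4 had a log2 change of 2.27 (SE 0.75, limma-voom BH-adjusted p = 0.0749), and with replicate 2 left out it was 3.30 and Mrgprb4 was a DEG. Mrgprb4 was at 1.68 without Nf1fl/fl;DhhCre replicate 3 and at 1.84 without DKO-labelled replicate 3.

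Mrgprb5, similar in sequence to Mrgprb4 (chr7:48167983-48169019, minus strand), had 6, 42 and 0 counts in the Nf1fl/fl;DhhCre libraries, or 0.416, 2.50 and 0 CPM. The count of 0 allows a level of up to 0.192 CPM in that library. In the DKO-labelled libraries it had 39, 69 and 137 counts, or 3.11, 5.67 and 9.04 CPM. The groups did not overlap. The fitted log2 fold change of 4.04 (SE 1.34, limma-voom BH-adjusted p = 0.0754) depends on the prior count added to the 0, and without that library, Nf1fl/fl;DhhCre replicate 3, it was 2.36. Without DKO-labelled replicate 3 it was 3.63, and over all fits with 1 library removed it reached 5.59, without Nf1fl/fl;DhhCre replicate 2. The ratio of the group means was 6.11.

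Mrgprx1, a receptor for the BAM8-22 itch peptide (chr7:48020971-48027597, minus strand), had 2.64, 6.32 and 1.16 CPM against 7.25, 7.07 and 9.57 CPM. The highest Nf1fl/fl;DhhCre library lay just below the lowest DKO-labelled library. For Mrgprx1 the log2 change was 1.53 (SE 0.53, limma-voom BH-adjusted p = 0.0842). Without Nf1fl/fl;DhhCre replicate 2 it was 2.23 and Mrgprx1 was a DEG, and without replicate 3 of that group it was 0.97. Leaving out DKO-labelled replicate 3 gave 1.38.

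Mrgpre, a Mas-related receptor without an established ligand (chr7:143778363-143784500, minus strand), was at 40.0, 43.9 and 31.2 CPM against 53.5, 37.8 and 71.9 CPM. The groups overlapped, with DKO-labelled replicate 2 below 2 of the Nf1fl/fl;DhhCre libraries. The estimate for Mrgpre was 0.48 on the log2 scale (SE 0.26, limma-voom BH-adjusted p = 0.230), with a 95% interval from -0.13 to 1.08, and lay between 0.25, without DKO-labelled replicate 3, and 0.71, without replicate 2 of that label.

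**Figure D1:**
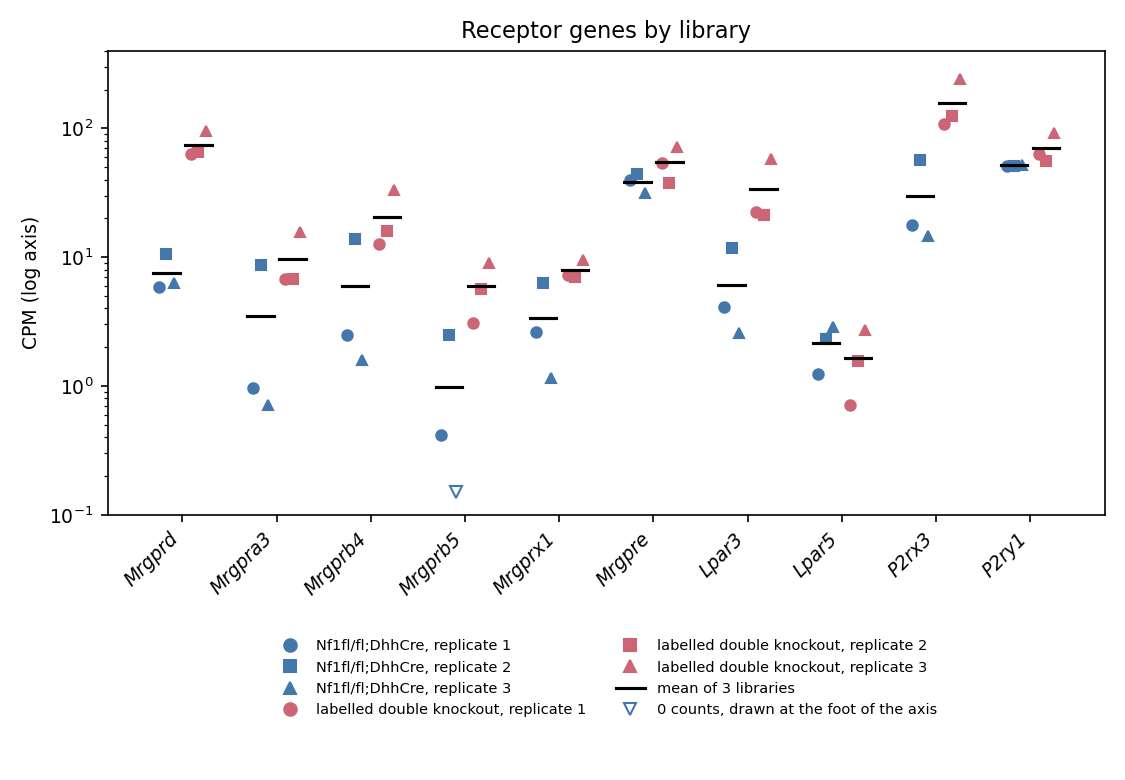
CPM of the 10 receptor genes in each library on a log axis, with 3 libraries per group and the bar at their arithmetic mean. Mrgprd separates the groups most clearly, from 5.83 to 10.5 CPM against 62.9 to 95.3 CPM, and the square of Nf1fl/fl;DhhCre replicate 2 lies above the other blue symbols in 8 of the 10 genes.

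Lysophosphatidic acid (LPA) is a lipid mediator linked to pain and itch, and Lpar3 and Lpar5 encode G protein-coupled receptors for it. Lpar3 (chr3:146220963-146286186, plus strand) was at 4.09, 11.7 and 2.57 CPM in the Nf1fl/fl;DhhCre group and at 22.2, 21.4 and 57.7 CPM in the DKO-labelled libraries. The groups did not overlap, and DKO-labelled replicate 3 was the highest. Lpar3 changed by 2.59 on the log2 scale (SE 0.66, limma-voom BH-adjusted p = 0.0349). Lpar3 passed as a DEG in 3 of the 6 fits with 1 library removed, with values from 2.10, without DKO-labelled replicate 3, to 3.29, without Nf1fl/fl;DhhCre replicate 2.

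Lpar5 (chr6:125067920-125082472, plus strand) had 18, 39 and 45 counts against 9, 19 and 41 counts. These are 1.25, 2.32 and 2.89 CPM against 0.717, 1.56 and 2.71 CPM, and the groups overlapped. The log2 fold change of -0.44 (SE 0.59, 95% interval -1.83 to 0.95, limma-voom BH-adjusted p = 0.637) was 0.09 without DKO-labelled replicate 1 and -0.93 without replicate 3.

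P2rx3, the subunit of the ATP-gated P2X3 channel (chr2:84998583-85037462, minus strand), was the member with the most reads in the DKO-labelled libraries. It was at 17.8, 57.3 and 14.6 CPM against 107, 125 and 239 CPM, with no overlap. P2rx3 changed by 2.57 on the log2 scale (SE 0.52, limma-voom BH-adjusted p = 0.0198). P2rx3 passed as a DEG in 4 of the 6 fits with 1 library removed, at 2.21 without DKO-labelled replicate 3 and 3.25 without Nf1fl/fl;DhhCre replicate 2.

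P2ry1, the ADP receptor P2Y1 (chr3:61002795-61008982, plus strand), was at 51.2, 51.4 and 51.8 CPM in the Nf1fl/fl;DhhCre libraries, the narrowest spread of any member. It was at 63.6, 55.7 and 91.3 CPM in the DKO-labelled libraries, each above all of the first group. The estimate for P2ry1 was 0.42 on the log2 scale (SE 0.20, limma-voom BH-adjusted p = 0.172), with a 95% interval from -0.04 to 0.89 that lies below 2-fold. P2ry1 was at 0.21 without DKO-labelled replicate 3 and at 0.58 without replicate 2 of that label.

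Of the 10 members, 3 were DEGs (Mrgprd, P2rx3 and Lpar3), all 3 higher in the DKO-labelled libraries. Over all genes tested, 13.4% were DEGs, 8.03% higher and 5.36% lower. The median log2 fold change of the members was 2.25, against 0.02 over all genes, and 9 of the 10 had a positive value. In 6 members all DKO-labelled libraries lay above all Nf1fl/fl;DhhCre libraries, a pattern shown by 21.8% of all genes. The replicate numbers do not pair mice, and the labels do not say that the libraries of a group came from separate litters or preparations, so p-values measure the spread between these libraries. Among DKO-labelled libraries, replicate 3 had the highest value of all 10 members, and for 9 of them it was the highest of all libraries. That library also had the highest neuron markers, at 178 CPM. Among Nf1fl/fl;DhhCre libraries, replicate 2 had the highest value of 8 members. This library also had the highest neuron markers of its group and muscle genes at 2159 CPM. Without it, 6 members were DEGs, with Mrgpra3, Mrgprb4 and Mrgprx1 added, and 14.3% of all genes were. Without both libraries with high muscle genes, a setting chosen after the data were seen that left 2 libraries per group, the same 6 were DEGs, against 11.1% of all genes. Without Nf1fl/fl;DhhCre replicate 1 or replicate 3, only Mrgprd was a DEG, as were 2.26% and 6.47% of all genes in those fits. Without DKO-labelled replicate 2 Mrgprd and P2rx3 were DEGs and Lpar3 was not, against 6.36% of all genes, and without replicate 3 the 3 members stayed DEGs, against 9.98%. With sample quality weights and with unadjusted p, 7 members were called, and 16% and 19% of all genes were. edgeR's quasi-likelihood test and DESeq2 each called the same 3 members as limma-voom, and called 14.5% and 18.6% of all genes.

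**Figure D2:**
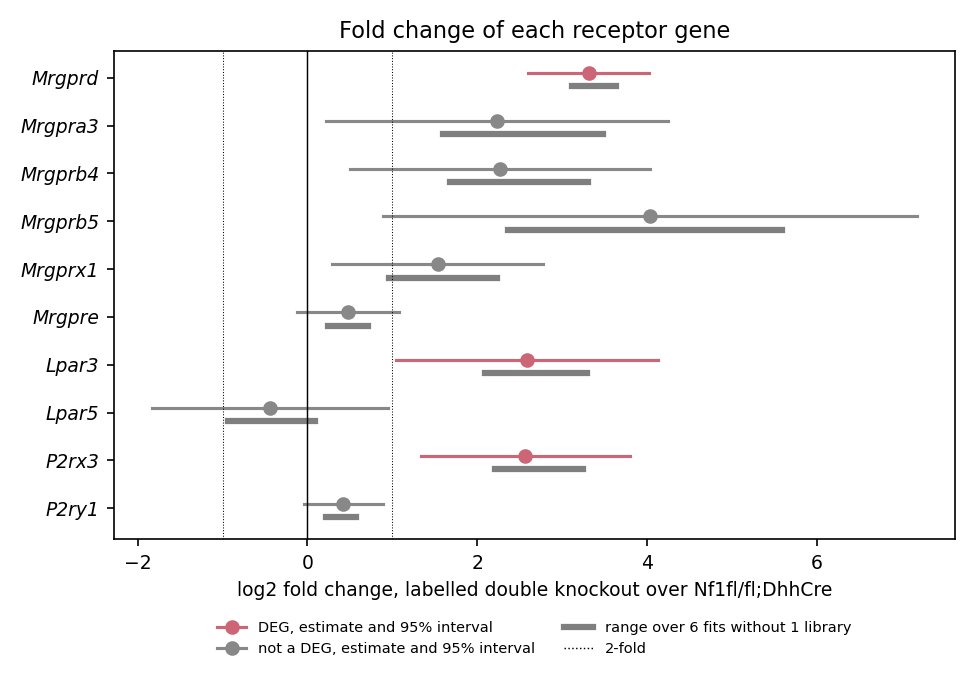
Log2 fold change of each receptor gene with its 95% interval from limma-voom (points and thin lines) and the range over 6 fits that each left out 1 library (thick lines). The intervals of Mrgprd, Lpar3 and P2rx3 lie wholly above 2-fold, and that of Mrgprb5 runs from 0.89 to 7.18.

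Levels were compared between genes only after division by exon length, in CPM per kb of the GENCODE M21 exons. In the Nf1fl/fl;DhhCre libraries the order was P2ry1 at 11.9 to 12.1, P2rx3 at 10.7 ± 8.51 (SD, n = 3) and Mrgpre at 10.2 ± 1.73 CPM per kb. These were followed by Mrgprb4 at 4.92, Mrgprx1 at 2.85, Mrgpra3 at 2.69, Lpar3 at 2.48, Mrgprd at 2.40, Lpar5 at 1.42 and Mrgprb5 at 0.938 CPM per kb. No 2 neighbours in this order were separated beyond their ranges. In the DKO-labelled libraries P2rx3 led at 56.3 ± 25.8 CPM per kb (SD, n = 3), and Mrgprd was next at 23.7 ± 5.74 CPM per kb. Mrgprb4 at 16.9, P2ry1 at 16.4, Mrgpre at 14.5 and Lpar3 at 13.7 CPM per kb formed a group with overlapping ranges. Mrgpra3 at 7.49, Mrgprx1 at 6.75, Mrgprb5 at 5.73 and Lpar5 at 1.10 CPM per kb were lower. Of the 9 pairs of neighbours in this group, 2 did not overlap, P2rx3 above Mrgprd and Mrgprb5 above Lpar5. Mrgprd thus took place 8 of 10 in one group and place 2 in the other.

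All 12 general neuron markers were DEGs with higher values in the DKO-labelled libraries, with a median log2 fold change of 2.40. Their mean log2 CPM differed by 2.27 between the groups (two-sided exact permutation p = 0.1, the smallest that 3 libraries against 3 allow). Without DKO-labelled replicate 3, 11 of the 12 were DEGs, and the difference was 1.96. The receptor genes were therefore also expressed relative to that mean, in each library, which asks whether a receptor changed more or less than the neuron markers did. On this scale Mrgprd was at -1.68, -1.97 and -1.42 in the Nf1fl/fl;DhhCre libraries and at -0.39, -0.64 and -0.90 in the DKO-labelled libraries. Mrgprd was thus closer to the neuron markers in each library of the second group, by 1.05 on the log2 scale (two-sided exact permutation p = 0.1). It was the only member with a positive difference and no overlap, and the difference lay between 0.91 and 1.18 with any 1 library removed.

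Lpar3 and P2rx3, the other DEGs, differed from the neuron markers by only 0.32 and 0.31 on the log2 scale, with overlapping groups (exact permutation p = 0.5 and 0.4). Single libraries moved both values. They were 0.08 and 0.16 without Nf1fl/fl;DhhCre replicate 3, 0.53 and 0.51 without Nf1fl/fl;DhhCre replicate 2, and 0.17 and 0.27 without DKO-labelled replicate 3. P2rx3 followed the neuron markers closely, at -0.07, 0.48 and -0.22 relative to them in the first group and at 0.38, 0.30 and 0.43 in the second. Mrgpra3 and Mrgprb4 had differences of -0.01 and 0.02 (exact permutation p = 1 for both), and both were highest in Nf1fl/fl;DhhCre replicate 2. These values depend on single libraries, at 0.71 and 0.54 without that replicate, -0.45 and -0.37 without Nf1fl/fl;DhhCre replicate 3, and -0.09 and -0.07 without DKO-labelled replicate 3. For Mrgprx1 the difference was -0.73 (exact permutation p = 0.3), with -0.55 without DKO-labelled replicate 3, and -0.52 and -1.09 without Nf1fl/fl;DhhCre replicates 2 and 3. For Mrgprb5 it was 1.77 (exact permutation p = 0.4), with 0.31 without Nf1fl/fl;DhhCre replicate 3, the library with 0 counts, 2.83 without replicate 2 of that group and 1.72 without DKO-labelled replicate 3.

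Mrgpre, P2ry1 and Lpar5 went the other way. Relative to the neuron markers Mrgpre was at 1.10, 0.10 and 0.87 against -0.63, -1.42 and -1.30, and P2ry1 was at 1.45, 0.33 and 1.60 against -0.38, -0.87 and -0.96. The differences were -1.81 for Mrgpre, -1.86 for P2ry1 and -2.74 for Lpar5, each without overlap (two-sided exact permutation p = 0.1 for each). With DKO-labelled replicate 3 removed they were -1.71, -1.75 and -2.86, and over all 6 removals they ran from -2.10 to -1.60, from -2.26 to -1.62 and from -3.05 to -2.26. A limma-voom fit over all genes with libraries scaled to the neuron markers was added after the data were seen. In it the median log2 difference of all genes was -2.25, and 0.134% of genes were called higher and 83.4% lower. Mrgpre, P2ry1 and Lpar5 were among those called lower, as were most genes, and the Mrgpre call was lost without Nf1fl/fl;DhhCre replicate 1 (limma-voom BH-adjusted p = 0.0533). Among the members 0 were called higher, also at an unadjusted p below 0.05, with Mrgprd at 1.06 (95% interval -0.15 to 2.27, limma-voom BH-adjusted p = 0.0987). Mrgprd was at 1.19 without DKO-labelled replicate 3 (limma-voom BH-adjusted p = 0.107). In that fit without Nf1fl/fl;DhhCre replicate 2, Mrgprb5 was called higher, at 2.85 (limma-voom BH-adjusted p = 0.038).

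**Figure D3:**
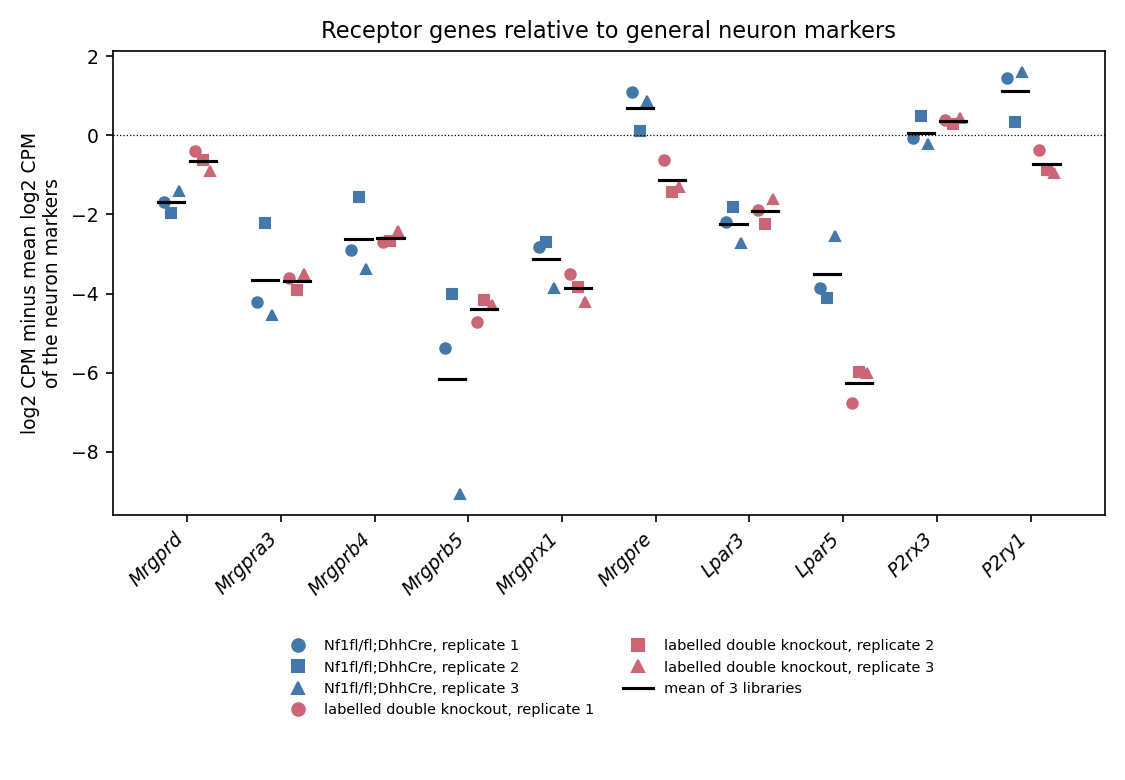
Log2 CPM of each receptor gene minus the mean log2 CPM of the 12 neuron markers in the same library, with 3 libraries per group and the bar at their mean. Mrgprd lies higher in all 3 DKO-labelled libraries, and Mrgpre, P2ry1 and Lpar5 lie lower, with differences of -1.81, -1.86 and -2.74 on the log2 scale. In a limma-voom fit scaled to these markers, the median log2 difference of all genes was -2.25.

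Mrgprd took a share of the reads of 5 Mas-related receptors, the others being Mrgpra3, Mrgprb4, Mrgprb5 and Mrgprx1. Of 178, 704 and 153 such reads in the Nf1fl/fl;DhhCre libraries, it held 47.2%, 25.0% and 64.7% (exact 95% binomial intervals 39.7 to 54.8%, 21.8 to 28.4% and 56.6 to 72.3%). These intervals cover counting error only, since amplified reads are not independent molecules. Of 1163, 1227 and 2461 reads in the DKO-labelled libraries, it held 67.8%, 64.8% and 58.7%. The shares were scattered in the first group and close together in the second, at 45.6 ± 19.9% and 63.8 ± 4.66% (SD, n = 3 each). They overlapped, and the two-sided exact permutation p was 0.2. Nf1fl/fl;DhhCre replicate 2, the library with the lowest share, had summed muscle genes at 2159 CPM. DKO-labelled replicate 2, with a share of 64.8%, had 11190 CPM of them. The part of muscle tissue in these shares was not tested.

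Other genes of the same families and pathways were examined as lists. Of the 14 other Mas-related receptors in the files, 13 were on the list, of which 8 were tested, and 3 were DEGs with higher values, Mrgpra1, Mrgpra4 and Mrgpra6. Each rests on few reads: Mrgpra4 had 4, 3 and 0 counts against 16, 18 and 23, Mrgpra6 had 2, 4 and 0 against 16, 11 and 18, and Mrgpra1 had 0, 4 and 1 against 9, 10 and 13. Mrgpra4 was also the gene that shared most sequence with Mrgpra3. The median log2 fold change of the 8 was 0.52. Mrgprx2, the receptor that the list left out, had 80, 14 and 21 counts against 14, 15 and 9, a log2 difference of -0.92 (SE 0.86, limma-voom BH-adjusted p = 0.485). Mrgprx2 was at -0.565 without DKO-labelled replicate 3 (limma-voom BH-adjusted p = 0.75). Adding it to the list, a step taken after the data were seen, left the 3 DEGs and moved the median to 0.03, or to -0.42 without DKO-labelled replicate 3. With DKO-labelled replicate 3 removed, 0 of the 8 were DEGs by limma-voom and 3 had an unadjusted p below 0.05, and Mrgpra4, Mrgpra6 and Mrgpra1 were at 3.48, 3.28 and 3.07. With all libraries 2 of the 8 were DEGs by the edgeR quasi-likelihood test and 3 by DESeq2, which called 14.5% and 18.6% of all genes.

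Among the other LPA genes, 0 of 5 were DEGs by limma-voom or by the edgeR quasi-likelihood test, 1 was by DESeq2, and 2 had an unadjusted limma-voom p below 0.05. The most abundant were Lpar1 at a log2 change of -0.17 (SE 0.12) and Enpp2, the LPA-producing enzyme autotaxin, at 0.03 (SE 0.22). The median of the 5 was -0.91. Without DKO-labelled replicate 3, 0 of the 5 were DEGs by limma-voom and 0 had an unadjusted p below 0.05, with Lpar1 at -0.22, Enpp2 at 0.15 and a median of -0.62. Of 11 other P2 receptors tested, 2 were DEGs by limma-voom, and both fell, whereas the edgeR quasi-likelihood test called 4 and DESeq2, which called the most genes of the 3 tools over all genes, called 5. P2ry13, an ADP receptor of myeloid cells, was at 20.7, 14.6 and 30.6 CPM against 7.73, 5.76 and 8.19 CPM, a log2 change of -1.53 (SE 0.36). P2ry14, a receptor for UDP-glucose, changed by -1.21 (SE 0.27). With DKO-labelled replicate 3 removed, 0 of 12 other P2 receptors tested were DEGs by limma-voom and 5 had an unadjusted p below 0.05, and P2ry13 and P2ry14 were at -1.63 and -1.26. P2rx6, a P2X subunit singled out after its values were seen, was at 1.53, 2.03 and 1.35 CPM against 3.27, 12.3 and 9.51 CPM, a log2 change of 2.16 without overlap (SE 0.67, limma-voom BH-adjusted p = 0.0629), or 1.94 without DKO-labelled replicate 3.

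Markers of other cells moved as well. Over the same libraries 5 of 7 macrophage markers were DEGs with lower values, with a median of -2.04 and summed levels of 821 to 1653 CPM against 132 to 325 CPM, and 4 of 7 were without DKO-labelled replicate 3. Of 4 fibroblast markers 3 were DEGs with lower values, Dcn, Lum and Pdgfra, with a median over the list of -1.22 and summed levels of 6223 to 7124 CPM against 2275 to 3584 CPM, and Dcn and Lum were without DKO-labelled replicate 3. Of 4 satellite glia markers Fabp7 was a DEG with a higher value, at 1.87 (SE 0.29), and Kcnj10 one with a lower value, at -1.25 (SE 0.22), and both were also without that replicate, at 1.60 and -1.45. The part of these cells in the P2 receptor values, and in those of the receptor genes, was not tested.

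Of 9 other genes of non-peptidergic nociceptors, 7 were DEGs with higher values, with a median log2 fold change of 2.12, and the same 7 were without DKO-labelled replicate 3. Scn11a and Scn10a, which encode the sodium channels NaV1.9 and NaV1.8 of nociceptors, changed by 3.09 (SE 0.50) and 2.79 (SE 0.53). Acpp, the prostatic acid phosphatase that marks these cells, changed by 2.62 (SE 0.43), and Ret, the receptor tyrosine kinase for GDNF family ligands, by 2.52 (SE 0.45). Gfra1 and Gfra2, co-receptors of RET and the 2 genes of the list that were not DEGs, were named after their values were seen and were at 0.69 each, under 2-fold. The values without DKO-labelled replicate 3 were 2.76 for Scn11a, 2.42 for Scn10a, 2.25 for Acpp, 2.18 for Ret, 0.67 for Gfra1 and 0.51 for Gfra2. Relative to the neuron markers Scn11a was higher by 0.83 and Scn10a by 0.53, both without overlap (exact permutation p = 0.1 for each), and by 0.81 and 0.47 without that replicate.

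Of 10 other itch genes tested, 6 were DEGs with higher values, and the median was 1.54. Without DKO-labelled replicate 3 there were 4, which are those named next. Sst, the neuropeptide somatostatin, was at 0.555, 1.07 and 1.09 CPM against 7.97, 9.70 and 14.5 CPM, a log2 change of 3.54 (SE 0.54). Htr1f, a serotonin receptor, changed by 3.22 (SE 0.53), Il31ra, a receptor subunit for interleukin 31, by 2.40 (SE 0.60) and Trpa1, the irritant channel, by 2.30 (SE 0.40), and without that replicate the 4 were at 3.28, 2.97, 1.99 and 2.02. Osmr, the partner of IL31RA that other cells also express, was named after its values were seen. It was at 231, 245 and 188 CPM against 150, 79.6 and 133 CPM, a log2 difference of -0.91, under 2-fold. This moved just past 2-fold without that replicate and was not a DEG there either (limma-voom BH-adjusted p = 0.0643). Relative to the neuron markers Sst was higher by 1.26 and Htr1f by 0.93, both without overlap (exact permutation p = 0.1 for each). Without DKO-labelled replicate 3 these were 1.34 and 1.015. Osmr, Nts, Hrh1, Trpv1 and Plcb3 of the list were lower relative to the neuron markers, also without overlap. They were named after their values were seen.

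Markers of the other sensory neuron classes were compared in the same way. All 5 peptidergic markers were DEGs with higher values, with a median log2 fold change of 1.99, among them Calcb at 3.44 (SE 0.87), Tac1, the substance P precursor, at 2.15 (SE 0.54) and Calca, the CGRP gene, at 1.99 (SE 0.43). So were 3 of 7 A-fibre markers, with a median of 1.62, Cntnap2 at 2.55 (SE 0.36), Nefh at 2.19 (SE 0.37) and Ntrk3 at 1.49 (SE 0.26), and 2 of 4 markers of C-fibre low-threshold mechanoreceptors, Th at 2.53 (SE 0.62) and Slc17a8 at 2.39 (SE 0.49). The median of the 4 mechanoreceptor markers was 2.355. Without DKO-labelled replicate 3 the numbers of DEGs were 1 of 5 peptidergic, 3 of 7 A-fibre and 1 of 4 mechanoreceptor markers. Calcb was then at 3.01, Tac1 at 1.75, Calca at 1.69, Cntnap2 at 2.24, Nefh at 1.80, Ntrk3 at 1.42, Th at 2.23 and Slc17a8 at 2.08. With all libraries the A-fibre markers Ntrk2 and Etv1 were lower, at -0.385 and -0.18. The mechanoreceptor marker Zfp521 was lower without overlap, at -0.36. None of them was a DEG, and they were named after their values were seen. They were at -0.22, -0.26 and -0.45 without DKO-labelled replicate 3. Only 1 of 6 general SC markers was a DEG, S100b, at 1.52 (SE 0.13), with a median of -0.08 over the list, and it was again the only one without that replicate, at 1.42, with a median of -0.02. No difference between these classes and the receptor genes was tested.

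**Figure D4:**
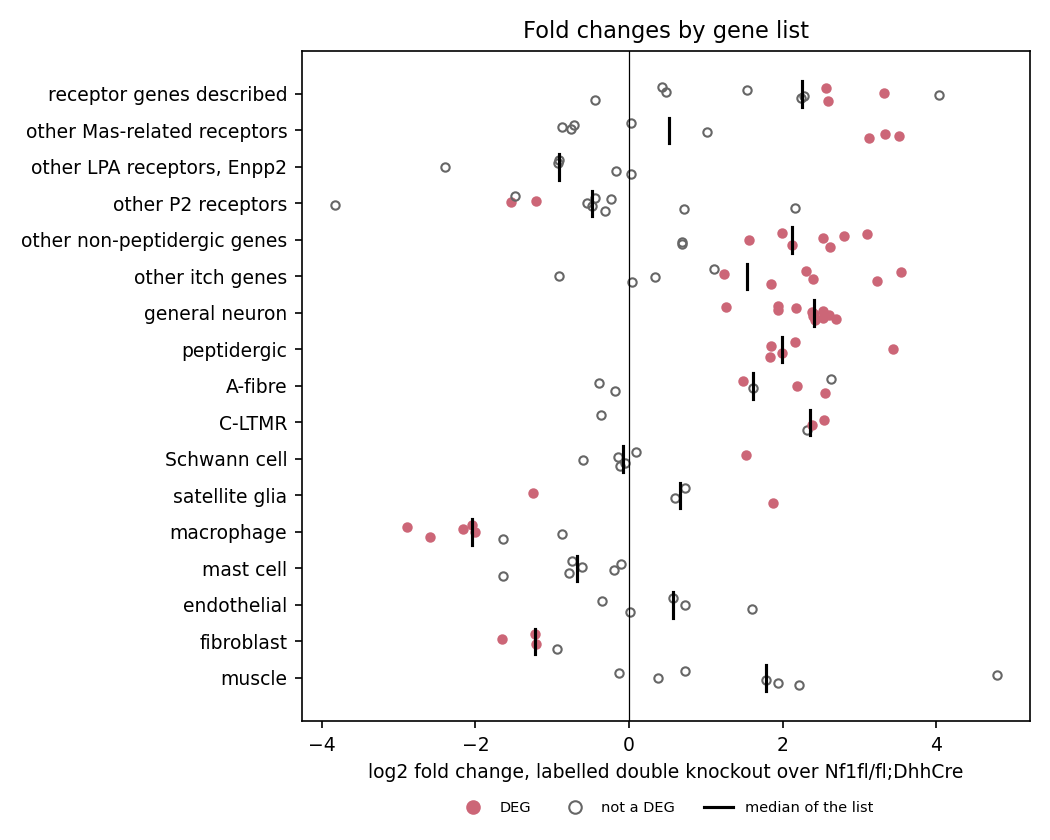
Log2 fold change of every tested gene in each list, with DEGs filled and the vertical bar at the list's median. The 12 general neuron markers are all filled and centre on 2.40, the 10 receptor genes spread from -0.44 to 4.04, and the macrophage genes lie below 0.

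The genes whose profile over the 6 libraries was most like that of Mrgprd were sought among 10221 genes whose average log2 CPM was 3 or more. Likeness was the root mean squared difference between log2 CPM profiles, each centred on its mean. The nearest were Ckmt1 at 0.228, Vsnl1, a neuronal calcium sensor, at 0.231, Cpne4 at 0.267, Slc6a15, a neutral amino acid transporter, at 0.279 and Ptprr at 0.289. For Lpar3 they were Car10 at 0.145, Ppp1r1c at 0.162, P2rx3 at 0.179, Scn10a at 0.184 and Trnp1 at 0.199. P2rx3, itself a member, was thus the third nearest to Lpar3, and these distances are a description of 6 libraries without a test.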

How the data were processed

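The authors amplified RNA with the NuGEN Ovation system, prepared Nextera XT libraries and, per the labels and the paper's methods, used CASAVA 1.4, aligned paired reads to mm10 with TopHat and counted them per gene with featureCounts. The deposited counts are whole numbers per gene, not normalized. Annotation and strandedness are not given in the sources used here. No row was without a gene name.

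The members and lists were chosen with earlier results of these data known. Genes were filtered with filterByExpr (minimum count 10, minimum total 15) and scaled by TMM in edgeR 4.0.16 under R 4.3.3, and fitted with limma-voom 3.58.1 with 1 term for genotype. P-values were corrected over all 15652 genes by the Benjamini-Hochberg (BH) method. Log2 CPM had a prior count of 0.5. DESeq2 1.42.0, edgeR's quasi-likelihood test and the other alternatives are given below. The steps were tested on simulated data. Replicates were numbered in label order and pair no mice. Titles and deposited columns disagree on mouse numbers within a genotype. All members were named, and of each other list up to 4 DEGs with the largest change or, where none was a DEG, the 2 genes with the highest mean CPM, with exceptions stated. Markers of neurons in general and of other cell types are given mostly as counts and levels, and 1 gene that the rule names is not reported here. Positions are from GENCODE M21. Alignments used Biopython and figures matplotlib.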

Additional observations from a re-analysis of the deposited data

How the results depend on the processing

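The 3 members called became 7 with sample quality weights, and 7 with unadjusted p, both adding Mrgpra3, Mrgprb4, Mrgprb5 and Mrgprx1, while DEGs over all genes were 2512 and 2978. With both libraries high in muscle genes left out, a setting added after the data were seen, the number was 6, with 1752 DEGs over all genes. With each library left out in turn it lay from 1 to 6, while the number of DEGs over all genes ranged from 362, without Nf1fl/fl;DhhCre replicate 1, to 2285, against 2096 with all libraries. It was 1033 without Nf1fl/fl;DhhCre replicate 3 and 1018 without DKO-labelled replicate 2. The value of Lpar5 ran from -0.93 to 0.09 in those fits and reversed its sign without DKO-labelled replicate 1. edgeR's quasi-likelihood test and DESeq2 each called 3 members, with 2264 and 2907 DEGs over all genes. The cause of these shifts was not tested. No paired analysis was possible because the replicate numbers were given here in label order and mark no shared litter, batch or day.

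Mrgprd lay between 3.23 and 3.40 over 7 other settings with all 6 libraries. Lpar5 and Mrgprb5 rest on few reads, with as few as 9 and 0 counts in a library. One DKO-labelled library came from another sequencing run, and conflicting labels make it DKO-labelled replicate 2 or 3, each of which was left out in turn. The tissue named in the labels, DRG or tumor, cannot be told apart from genotype.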

Other observations

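Mrgprb2 and Mrgprb1, Mas-related genes known from mast cells rather than neurons, were singled out after their values were seen. Mrgprb2 had 32, 11 and 43 counts in the Nf1fl/fl;DhhCre libraries and 12, 13 and 9 counts in the DKO-labelled libraries, a log2 change of -0.87 (SE 0.73, limma-voom BH-adjusted p = 0.443). Mrgprb1 was at -0.75 (SE 0.59, limma-voom BH-adjusted p = 0.403). The 6 mast cell markers had a median of -0.68, and 0 of them were DEGs by limma-voom, edgeR or DESeq2 or had an unadjusted limma-voom p below 0.05. Without DKO-labelled replicate 3, Mrgprb2 was at -0.59 and Mrgprb1 at -0.42, and of the mast cell markers 0 were DEGs or had an unadjusted p below 0.05 by limma-voom, with a median of -0.31. The neuronal Mas-related receptors Mrgprd, Mrgpra3, Mrgprb4, Mrgprb5 and Mrgprx1 had positive fold changes in the same libraries, and the difference between these groups of receptors was not tested.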
